A study of Mus musculus with 6 samples.

Results

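Guidance ligands and receptors are cell-surface and secreted proteins first studied in growing axons and also used by epithelia to sort, separate and hold cells together. The genes described here were the rows of the deposited table whose symbol belongs to the semaphorins, plexins, neuropilins, Eph receptors, ephrins, Slits, Robos, netrins or Unc5 receptors. There were 49 such genes among 11417. One of them, Unc50, shares only the first letters of its name with the Unc5 receptors and encodes a protein of the Golgi membrane, which leaves 48 guidance genes.

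The RNA came from 3 untreated mouse mammary cell lines, BC44, HC11 and C57MG, with 2 libraries for each line. HC11 is a clonal line much used in studies of lactogenic hormones, and C57MG is used in assays of transformation by Wnt proteins. All were grown on plastic with 10% serum and were collected 2 days after plating. BC44 was fed RPMI with 5 µg/ml insulin, HC11 the same medium with 10 ng/ml EGF added, and C57MG DMEM with 10 µg/ml insulin, so line and medium cannot be told apart. The labels do not say whether the 2 libraries of a line came from separate cultures, and p-values then measure only the spread between these libraries, which may be technical.

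Levels are given in RPKM, reads scaled to gene length and to sequencing depth, a unit in which genes can be compared with each other. Depth was estimated at 14070000 to 18420000 reads per library. All 3 lines are labelled mammary epithelial, and this was checked against marker lists. Of 18 epithelial markers in the table, 14 reached a mean of 1 RPKM for BC44, 18 for HC11 and 3 for C57MG. The summed level of these markers was 65.6 and 143 RPKM in the C57MG libraries, against 2620 to 5872 in the other 4. Epcam and Cdh1, which define epithelium, were at 0 in C57MG replicate 2 and at 0.949 and 1.09 RPKM in replicate 1. Most of the C57MG sum was Krt14, at 118 and 64.8 RPKM. In BC44, Krt7, Krt8, Krt18 and Cldn3 were at 0.078 RPKM or less in both libraries. Krt8 was higher in C57MG (0.307 and 0.503 RPKM) than in BC44 (0.038 and 0.064). Of lists of 10 neuronal, 10 endothelial and 10 immune markers, 2, 3 and 3 were in the table. A mean of 1 RPKM was reached by 2 neuronal markers in BC44, 2 in HC11 and 1 in C57MG. For endothelial markers these numbers were 2, 1 and 1, and for immune markers 2, 2 and 3. The largest values were those of Tubb3 in BC44 (48.6 and 69.6 RPKM) and Cd14 in HC11 (19.6 and 31.9). Of 17 mesenchymal markers, 16 reached a mean of 1 RPKM for C57MG, 10 for BC44 and 9 for HC11. They summed to 7310 and 7517 RPKM in C57MG, against 347 to 511 elsewhere. Most of the C57MG sum was S100a4 (3684 and 3794 RPKM) and Vim (2708 and 2282). Of the 17, 14 were highest in C57MG. Snai2, Postn and Dcn were not, with Snai2 at 7.85 and 6.58 RPKM in C57MG and 32.1 and 42.9 in BC44. Each contrast with C57MG below therefore also sets apart lines that differ in most of these epithelial and mesenchymal markers. The part of the markers in any difference was not tested. In bulk RNA, fewer cells of a type and less RNA per cell cannot be told apart.

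Genes private to 1 line were measured in the libraries of the others, as a share of their level at home. For genes private to C57MG the median share was 0.666% in BC44 replicate 1 and 2.017% in replicate 2. For genes private to BC44 it was 0.729% in C57MG replicate 1, 0 in C57MG replicate 2, and 2.381% and 1.214% in the HC11 libraries. These BC44 shares rest on 11 genes in C57MG and 18 in HC11. Of those 18, 66.7% lay within 2-fold of the median in HC11 replicate 1 and 44.4% in replicate 2. Among the 49 genes, 10 were listed at 0 in C57MG replicate 2, and all 10 were above 0 in C57MG replicate 1. Their level there was 0.347% to 6.75% of the BC44 mean, with a median of 0.748%. These 10 were Sema3e, Sema4f, Sema4g, Sema6a, Epha1, Epha4, Epha7, Ephb1, Efna2 and Robo1.

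In this signalling system some ligands sit on the membrane of a neighbouring cell and others are secreted. Semaphorins bind plexins, whose inner part acts on small GTPases and the actin cytoskeleton. The secreted class 3 semaphorins mostly need a neuropilin as the ligand-binding partner of a plexin. Ephrins are bound to the membrane and activate Eph receptor tyrosine kinases on the next cell, which often pushes the cells apart. Slit proteins act through Robo receptors, and netrins through Unc5, Dcc and neogenin. In the mammary gland Slit2 with Robo1 and Ntn1 with neogenin are known for holding the outer and inner cell layers of the duct together.

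A gene was tested when at least 2 libraries reached 1 RPKM, which held for 45 of the 49. Between BC44 and C57MG, 40 of the 45 had a limma adjusted p-value under 0.05, against 71.7% of all genes tested. Of these, 24 were higher in BC44 (background 37.5%) and 16 in C57MG (34.1%). Between HC11 and C57MG, 32 of 45 passed against a background of 70.5%, with 15 higher in HC11 (37.4%) and 17 in C57MG (33.2%), so the share of members that passed was close to that of all genes. Between BC44 and HC11, 27 of 45 passed against 47.7%, with 18 higher in BC44 (24.7%) and 9 in HC11 (23.0%).

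The median absolute log2 fold change of the guidance genes was above that of all genes tested in each contrast. It was 0.70 against 0.30 between BC44 and HC11, 1.36 against 0.57 between BC44 and C57MG, and 0.90 against 0.53 between HC11 and C57MG. The log2 scale used throughout is that of RPKM + 1, so a low gene changes more than its fold change shows. Differences of at least 2-fold that also passed the threshold were found for 16 of the 45 between BC44 and HC11 (background 12.5%), 12 of them higher in BC44 (5.42%) and 4 in HC11 (7.09%). There were 30 between BC44 and C57MG (29.8%) and 21 between HC11 and C57MG (27.0%), and 36 of the 45 met this rule in at least 1 contrast (38.3% of all genes). Of the tested genes, 8 reached 1 RPKM in libraries of 1 line only, so the filter itself made a difference likely for them. These were Sema4f, Epha4, Ephb1 and Ntn4 in BC44, Robo1 in HC11, and Sema6b, Sema6d and Epha8 in C57MG. The 4 genes not tested were Sema4g, Plxna2, Plxnb3 and Efnb3, whose highest value in any library was 0.519, 0.963, 0.605 and 0.902 RPKM.

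Each line stood at least 2-fold apart from both others for some guidance genes, and these sets overlap at Sema3e, Plxnd1 and Slit2. BC44 was above both for 8 genes (background 3.45%), Sema3a, Sema3e, Sema4f, Epha4, Ephb1, Efna3, Efna4 and Ntn4. Of these, Sema4f, Epha4, Ephb1 and Ntn4 passed the filter through BC44 alone. BC44 was below both for Efnb2, Plxnd1 and Slit2 (3.18%). C57MG was above both for 7 genes (10.2%), Sema6b, Sema6d, Plxnd1, Nrp1, Epha8, Ephb6 and Ntn1. Of these, Sema6b, Sema6d and Epha8 passed the filter through C57MG alone. C57MG was below both for 9 (9.20%), Sema3d, Sema3e, Sema4a, Sema4d, Sema6a, Plxnb1, Epha1, Epha7 and Efna5. HC11 was above both only for Slit2 (3.47%) and below both for Sema3f, Ephb2 and Ephb3 (1.52%). Only Unc50, which lay between 19.6 and 24.3 RPKM, and Plxna3 passed in none of the 3 contrasts (14.0% of all genes), and 17 of the 45 passed in all (26.8% of all genes).

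**Figure D1:**
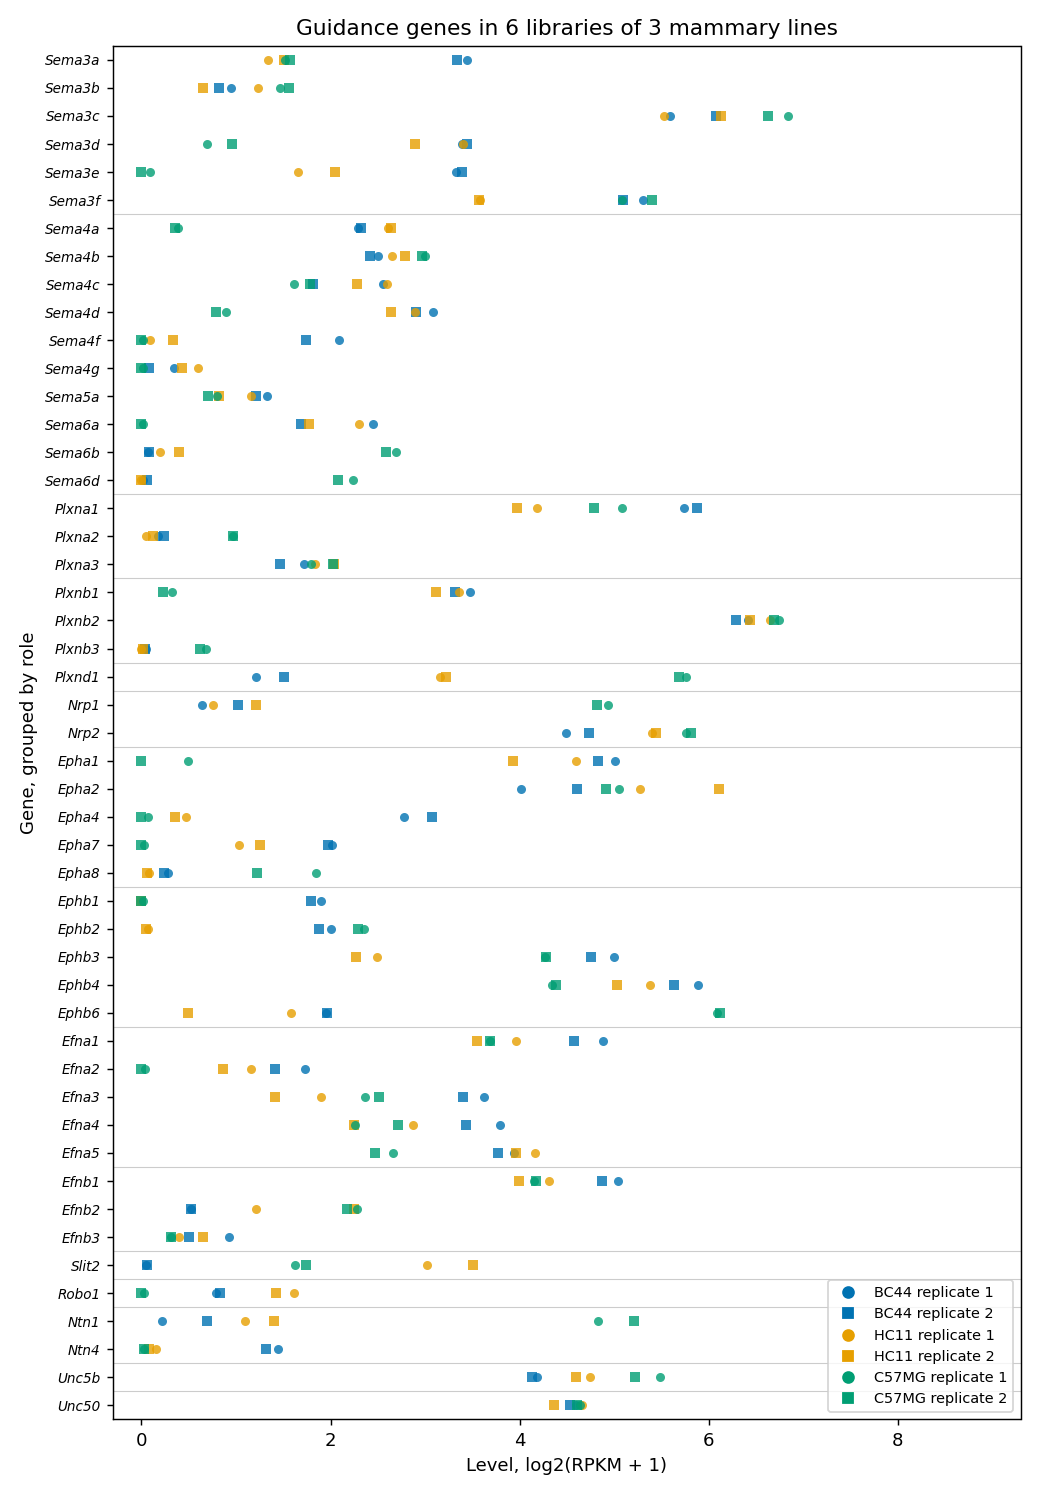
Level of each gene as log2(RPKM + 1) on the x axis, with 1 row per gene grouped by role and 1 point per library, coloured by line and shaped by replicate. C57MG libraries sit far right of the others for Nrp1, Plxnd1, Ephb6 and Ntn1 and at or near 0 for Epha1, Epha4 and Sema3e.

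The secreted class 3 semaphorins were led by Sema3c in every library. Sema3c, which signals through neuropilins with plexins, was at 47.1 and 66.4 RPKM in BC44 replicates 1 and 2, 45.2 and 69.05 in HC11, and 113 and 98.0 in C57MG. The C57MG libraries were the highest, and the BC44 and HC11 libraries overlapped. C57MG was higher by 0.90 on the log2 scale than BC44 (SE 0.22, adjusted p = 0.00732) and by 0.90 than HC11 (SE 0.22, adjusted p = 0.00753). For BC44 against HC11 the difference was 0.00, with a 95% confidence interval from -0.51 to 0.52. Without BC44 replicate 1 the difference between BC44 and C57MG did not pass (-0.66, adjusted p = 0.0634).

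Sema3a, a repellent that binds Nrp1, was highest in BC44, with 9.86 and 9.12 RPKM for BC44, 1.52 and 1.83 for HC11, and 1.87 and 1.97 for C57MG. The BC44 libraries stood apart from the rest, and the HC11 and C57MG libraries lay close together. BC44 exceeded HC11 by 1.97 (SE 0.11, adjusted p = 1.1e-05) and C57MG by 1.84 (SE 0.11, adjusted p = 3.89e-06). HC11 against C57MG gave -0.13 (95% confidence interval -0.38 to 0.13).

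Sema3e, which binds Plxnd1 without a neuropilin, formed 3 steps. It was at 9.04 and 9.52 RPKM for BC44, 2.15 and 3.14 for HC11, and 0.066 and 0 for C57MG, an estimated 11 reads and none. BC44 was above HC11 by 1.51 (SE 0.14, adjusted p = 0.000145) and above C57MG by 3.32 (SE 0.14, adjusted p = 7.87e-07), and HC11 was above C57MG by 1.81 (SE 0.14, adjusted p = 2.12e-05). Sema3d was at 9.47 and 9.92 RPKM for BC44, 9.56 and 6.44 for HC11, and 0.619 and 0.935 for C57MG. It was higher than in C57MG by 2.60 in BC44 (SE 0.18, adjusted p = 8.05e-06) and 2.32 in HC11 (SE 0.18, adjusted p = 1.71e-05). The BC44 and HC11 values of Sema3d overlapped (0.27, 95% confidence interval -0.14 to 0.69).

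Sema3f, a ligand of Nrp2, was low in HC11 only. HC11 averaged 10.9 ± 0.107 RPKM, BC44 35.9 ± 3.91 and C57MG 37.1 ± 6.02 (SD, n = 2 each). HC11 was lower by 1.62 than BC44 (adjusted p = 5.41e-05) and by 1.66 than C57MG (adjusted p = 1.69e-05) in the limma fit. Sema3b stayed low, with a mean of 0.851 RPKM for BC44, 0.966 for HC11 and 1.86 for C57MG. Summed over the class, the level was 122 ± 9.74 RPKM for BC44, 81.3 ± 14.9 for HC11 and 147 ± 4.50 for C57MG (SD, n = 2 each). Sema3c made up 46.3% of that sum for BC44, 69.5% for HC11 and 71.7% for C57MG.

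The membrane-bound semaphorins of classes 4 to 7 were lower as a group, and their make-up changed between lines. Their sum was 26.9 ± 5.00 RPKM for BC44, 26.0 ± 2.42 for HC11 and 19.7 ± 0.740 for C57MG (SD, n = 2 each). Sema4b, highest of them by the mean over all libraries although Sema4d was higher in BC44 and HC11, was at 4.66 and 4.32 RPKM for BC44, 5.28 and 5.91 for HC11, and 7.01 and 6.85 for C57MG. C57MG was above BC44 by 0.53 (SE 0.10, adjusted p = 0.00237). Its difference from HC11 of 0.27 (SE 0.10) was at the threshold, with an adjusted p of 0.0492, and did not pass under 10 of the 13 alternative settings.

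Sema4a and Sema4d were carried by BC44 and HC11. Sema4d, a ligand of Plxnb1, had means of 6.97 ± 0.692 RPKM for BC44, 5.85 ± 0.860 for HC11 and 0.791 ± 0.0948 for C57MG. Sema4a averaged 3.95 ± 0.0948, 5.15 ± 0.0891 and 0.291 ± 0.0219 RPKM in the same order (SD, n = 2 for all). Both were higher in BC44 and in HC11 than in C57MG, with log2 fold changes from 1.93 to 2.25 and a largest adjusted p of 8.25e-06.

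The class 6 semaphorins, which bind A plexins, were exchanged between lines. Sema6a was at 4.46 and 2.22 RPKM in BC44, with 3.93 and 2.42 in HC11 and 0.013 and 0 in C57MG, an estimated 2 reads and none. Sema6b was at 5.48 and 5.01 RPKM for C57MG, 0.052 and 0.058 for BC44, and 0.149 and 0.316 for HC11. Sema6d was at 3.73 and 3.23 RPKM in C57MG and listed at 0 in both HC11 libraries. The level in C57MG was therefore at least 195-fold higher, with the floor set at 3 estimated reads per library. In BC44 Sema6d had an estimated 2 and 7 reads. BC44 and HC11 thus shared Sema6a and C57MG had the other two, with no overlap of C57MG libraries with those of either line for the 3 genes. All 6 of these contrasts with C57MG passed, with adjusted p-values from 6.63e-07 to 0.000278. Sema6b and Sema6d passed the filter on low values through their C57MG libraries alone.

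Of the remaining members of these classes, Sema4f was at 3.25 and 2.33 RPKM in BC44 and at most 0.258 in the other libraries. Sema4c lay between 2.05 and 5.03 RPKM in all libraries. Its HC11 mean of 4.45 RPKM was above the C57MG mean of 2.25 (0.74, SE 0.24, adjusted p = 0.0242), a call lost without either C57MG library or HC11 replicate 1. Sema5a lay between 0.624 and 1.52 RPKM.

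**Figure D2:**
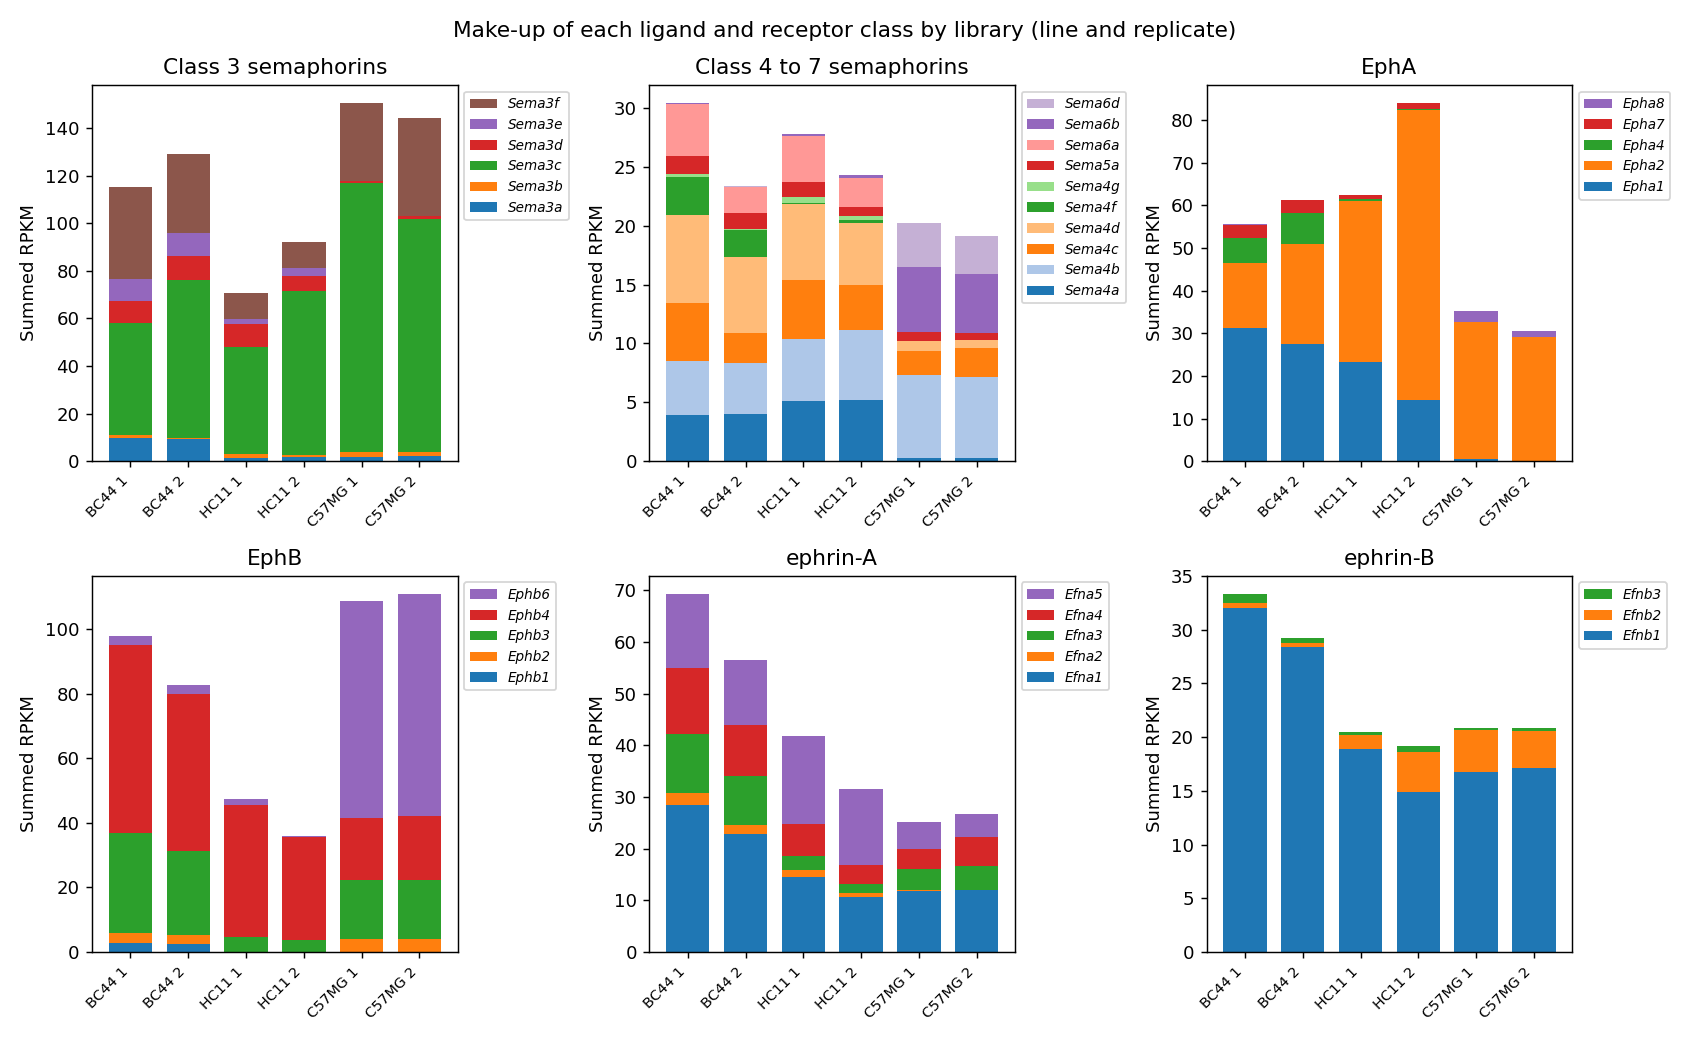
Stacked bars of the summed RPKM of each gene in 6 ligand and receptor classes, with 1 bar per library (line and replicate) on the x axis. Epha1 and Epha2 share the EphA bars of BC44 while Epha2 makes up over 90% in C57MG, and Ephb6 fills 61.7% and 62.0% of the EphB bars of C57MG.

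Among the plexins, Plxnb2 was the most abundant in every library, and Plxnd1 and Plxnb1 separated C57MG from the other lines in opposite directions. Plxnb2, a receptor of class 4 semaphorins, was at 84.7 and 77.5 RPKM for BC44, 99.2 and 85.9 for HC11, and 106 and 102 for C57MG. The values of all 6 libraries lay close together. C57MG was above BC44 by 0.36 (SE 0.09, adjusted p = 0.00929), which did not pass without BC44 replicate 2 (adjusted p = 0.0637) or C57MG replicate 1 (0.0585). The other contrasts gave -0.19 for BC44 against HC11 (95% confidence interval -0.40 to 0.03) and -0.17 for HC11 against C57MG (-0.39 to 0.04).

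Plxnd1, the receptor of Sema3e and best known from blood vessels, rose in steps from BC44 to C57MG. It was at 1.31 and 1.85 RPKM for BC44, 7.91 and 8.36 for HC11, and 53.2 and 50.5 for C57MG. No libraries of different lines overlapped. The log2 fold change was -1.83 (SE 0.12, adjusted p = 2.47e-05) for BC44 against HC11, -4.36 (SE 0.12, adjusted p = 2.71e-07) for BC44 against C57MG and -2.53 (SE 0.12, adjusted p = 1.51e-06) for HC11 against C57MG. The mean in C57MG was 32.8 times that of BC44 and 6.37 times that of HC11. The BC44 libraries held 2.53% and 3.57% of the C57MG mean, against 0.666% and 2.017% for genes private to C57MG.

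Plxnb1, a receptor of Sema4d, went the other way. It was at 10.1 and 8.98 RPKM for BC44, 9.26 and 7.64 for HC11, and 0.253 and 0.174 for C57MG. BC44 and HC11 overlapped, and both lay far above C57MG, by 3.12 (SE 0.12, adjusted p = 5.61e-07) and 2.96 (SE 0.12, adjusted p = 8.78e-07). Plxnb1 made up 10.5% of the summed plexin B level for BC44, 8.35% for HC11 and 0.21% for C57MG, with Plxnb2 making up most of the rest.

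Plxna1, a partner of neuropilins, was at 52.5 and 57.9 RPKM for BC44, 17.1 and 14.7 for HC11, and 32.8 and 26.7 for C57MG. The lines did not overlap, with BC44 highest and HC11 lowest. BC44 exceeded HC11 by 1.73 (SE 0.12, adjusted p = 3.47e-05) and C57MG by 0.87 (SE 0.12, adjusted p = 0.000422), and HC11 was below C57MG by 0.86 (SE 0.12, adjusted p = 0.000506). Plxna3 lay between 1.77 and 3.12 RPKM in all libraries. Plxna2 and Plxnb3 were highest in C57MG, at 0.950 and 0.963 and at 0.605 and 0.539 RPKM, and were not tested.

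The neuropilins separated C57MG by Nrp1. Nrp1, the co-receptor of Sema3a and also of vascular endothelial growth factor, was at 0.556 and 1.03 RPKM for BC44, 0.693 and 1.32 for HC11, and 29.6 and 27.2 for C57MG. Its C57MG mean was 35.9 times that of BC44 and 28.2 times that of HC11, with log2 fold changes of -4.05 (SE 0.19, adjusted p = 1.06e-06) and -3.89 (SE 0.19, adjusted p = 1.53e-06). BC44 and HC11 overlapped (-0.16, 95% confidence interval -0.59 to 0.28). When the other line's signal was subtracted in both BC44 and C57MG, Nrp1 was lower in BC44 than in HC11 (-0.49, adjusted p = 0.0371). The BC44 libraries held 1.96% and 3.62% of the C57MG mean of Nrp1.

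Nrp2, which binds Sema3f, was present in all lines. It was at 21.5 and 25.6 RPKM for BC44, 41.2 and 42.6 for HC11, and 53.2 and 55.3 for C57MG, with no overlap between lines. HC11 was above BC44 by 0.81 (SE 0.10, adjusted p = 0.000436) and C57MG above BC44 by 1.17 (SE 0.10, adjusted p = 2.16e-05). C57MG was above HC11 by 0.36 (SE 0.10, adjusted p = 0.011), which did not pass without C57MG replicate 2 (0.0681) or HC11 replicate 1 (0.0511). Nrp2 made up 96.8% of the summed neuropilin level for BC44, 97.7% for HC11 and 65.6% for C57MG.

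The Eph receptors differed in make-up between lines, and less in their pooled sum than in the sum of each class. Their summed level was 149 ± 6.54 RPKM for BC44, 115 ± 7.11 for HC11 and 143 ± 1.66 for C57MG (SD, n = 2 each). The EphA sum was 58.4 ± 4.1 RPKM for BC44, 73.2 ± 15.2 for HC11 and 32.9 ± 3.3 for C57MG. The EphB sum was 90.3 ± 10.6, 41.7 ± 8.1 and 110 ± 1.6 RPKM in the same order. Among EphA receptors, Epha1, an epithelial member, was at 31.3 and 27.5 RPKM for BC44, 23.2 and 14.2 for HC11, and 0.406 and 0 for C57MG, an estimated 29 reads and none. BC44 and HC11 did not overlap, but their difference of 0.66 (SE 0.24) did not pass (adjusted p = 0.0568). It passed when only the 4 libraries of the 2 lines were fitted (0.0491). It also passed when the other line's signal was subtracted in both BC44 and C57MG (0.0395), where the difference stayed at 0.66. Without HC11 replicate 1 the difference was 0.99. Against C57MG, Epha1 was higher by 4.68 in BC44 (SE 0.24, adjusted p = 1.87e-06) and by 4.02 in HC11 (SE 0.24, adjusted p = 4.76e-06). The annotation places 6.0% of the exon bases of Epha1 opposite exons of Zyx, and whether the counting used the strand is not given in the sources used here.

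Epha2, a receptor of Efna1, was the highest EphA gene over all libraries. It was at 15.1 and 23.4 RPKM for BC44, 37.8 and 68.1 for HC11, and 32.1 and 29.2 for C57MG. The HC11 libraries were the highest and differed most from each other. HC11 exceeded BC44 by 1.38 (SE 0.28, adjusted p = 0.00546), which did not pass without BC44 replicate 1 (-1.09, adjusted p = 0.0509). BC44 against C57MG (0.0623) and HC11 against C57MG (0.053) missed the threshold, with differences of -0.67 (95% confidence interval -1.33 to -0.02) and 0.71 (0.05 to 1.37). Without BC44 replicate 2 the first of these passed (-0.97, adjusted p = 0.0440), as it did without either HC11 library (0.0254 in both) and when only the 4 libraries of these lines were fitted (0.0249). The second passed without HC11 replicate 1 (1.13, adjusted p = 0.00943).

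Epha4, which binds ephrins of both classes, was at 5.87 and 7.40 RPKM for BC44, 0.383 and 0.276 for HC11, and 0.052 and 0 for C57MG. BC44 stood above HC11 by 2.52 (SE 0.12, adjusted p = 6.14e-06) and above C57MG by 2.89 (SE 0.12, adjusted p = 7.41e-07). Epha4 passed the filter on low values through its BC44 libraries alone. The HC11 mean was 0.330 RPKM, and its excess over C57MG of 0.37 (SE 0.12, adjusted p = 0.0278) did not pass after quantile normalization (0.13, adjusted p = 0.380). That excess also did not pass without C57MG replicate 1 (0.41, adjusted p = 0.0719), C57MG replicate 2 (0.34, 0.125) or HC11 replicate 1 (0.32, 0.102).

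Epha7 fell from 2.98 ± 0.0856 RPKM in BC44 to 1.22 ± 0.239 in HC11 and 0.017 and 0 RPKM in the C57MG libraries (SD, n = 2). Epha8 was at 2.58 and 1.34 RPKM in C57MG and at 0.218 or less elsewhere. Epha1 and Epha2 made up 50.6% and 32.7% of the summed EphA level for BC44, 27.1% and 70.7% for HC11, and 0.57% and 93.5% for C57MG.

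The EphB receptors had a different leading gene in C57MG. Ephb4, known as the receptor of Efnb2, was at 58.3 and 48.7 RPKM for BC44, 40.8 and 31.7 for HC11, and 19.2 and 19.9 for C57MG. The lines did not overlap. BC44 exceeded C57MG by 1.40 (SE 0.14, adjusted p = 5.27e-05) and HC11 exceeded it by 0.85 (SE 0.14, adjusted p = 0.000899). BC44 exceeded HC11 by 0.55 (SE 0.14, adjusted p = 0.0124), which did not pass without BC44 replicate 1 (0.43, adjusted p = 0.0905) or HC11 replicate 2 (0.38, 0.0615).

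Ephb6, whose kinase domain lacks activity, was at 67.1 and 68.8 RPKM for C57MG, 2.88 and 2.89 for BC44, and 2.00 and 0.407 for HC11. Its C57MG mean was 23.6 times that of BC44 and 56.5 times that of HC11, with log2 fold changes of -4.15 (SE 0.30, adjusted p = 1.11e-05) and -5.07 (SE 0.30, adjusted p = 4.55e-06). The HC11 libraries differed 4.91-fold from each other. BC44 was above HC11 by 0.92 (SE 0.30, adjusted p = 0.0389). This did not pass without either BC44 library (adjusted p = 0.147 without replicate 1 and 0.146 without replicate 2) or either C57MG library (0.0651 and 0.0652). With the other line's signal subtracted in both BC44 and C57MG it was 0.52 (adjusted p = 0.236). Without HC11 replicate 2 the difference was 0.37 and without HC11 replicate 1 it was 1.46. The BC44 libraries held 4.24% and 4.25% of the C57MG mean.

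Ephb3 was at 31.0 and 26.1 RPKM for BC44, 4.61 and 3.81 for HC11, and 18.2 and 18.4 for C57MG. HC11 was the low line, below BC44 by 2.50 (SE 0.12, adjusted p = 5.28e-06) and below C57MG by 1.89 (SE 0.12, adjusted p = 5.99e-06). BC44 was above C57MG by 0.61 (SE 0.12, adjusted p = 0.0024). Ephb2 showed the same order of HC11 below the others, with 3.00 and 2.66 RPKM for BC44, 4.13 and 3.89 for C57MG, and 0.047 and 0.033 for HC11, an estimated 11 and 6 reads.

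Ephb1 had more than 1 estimated read in BC44 alone, at 2.72 and 2.47 RPKM. It was listed at 0 in both HC11 libraries, which makes it at least 96.5-fold higher in BC44 at a floor of 3 estimated reads per library. In C57MG it had an estimated 1 read and none. Ephb4 made up 59.2% of the summed EphB level in BC44 and 87.1% in HC11, and Ephb6 made up 61.9% in C57MG. All 5 EphB genes were higher in BC44 than in HC11 with an adjusted p under 0.05, where 24.7% of all genes were. Without BC44 replicate 1, 3 of them passed, and all genes called in either direction fell from 47.7% to 35.0%. Ephb1 passed the filter on low values through its BC44 libraries alone.

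The ephrin-A ligands, which are anchored to the membrane by a lipid, were highest in BC44. Their sum was 63.0 ± 9.03 RPKM for BC44, 36.6 ± 7.24 for HC11 and 25.9 ± 1.08 for C57MG (SD, n = 2 each). All 5 were higher in BC44 than in C57MG (37.5% of all genes), and 4 were higher in BC44 than in HC11 (24.7%). Of these 4, 2 passed without BC44 replicate 1 or without HC11 replicate 2, where 35.0% and 40.1% of all genes were called in either direction against 47.7% with all libraries. Efna1, the highest of them in BC44 and C57MG, was at 28.5 and 22.9 RPKM for BC44, 14.5 and 10.7 for HC11, and 11.9 and 11.9 for C57MG. BC44 exceeded HC11 by 0.98 (SE 0.16, adjusted p = 0.0018) and C57MG by 1.04 (SE 0.16, adjusted p = 0.000589). HC11 and C57MG overlapped (0.06, 95% confidence interval -0.30 to 0.43).

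Efna1, Efna3 and Efna4 lie next to each other in the GRCm38 annotation, with no protein-coding gene between them. Efna3 averaged 10.4 ± 1.24 RPKM for BC44, 2.19 ± 0.748 for HC11 and 4.42 ± 0.375 for C57MG. Efna4 averaged 11.3 ± 2.16, 5.03 ± 1.80 and 4.66 ± 1.26 RPKM in the same order (SD, n = 2 for all). The 3 neighbours were thus all highest in BC44, by ratios of means between 2.04 and 4.75. The excess of Efna4 over HC11 (1.06, adjusted p = 0.00935) did not pass without BC44 replicate 1 or without HC11 replicate 2. For Efna3 and Efna4, 14.1% and 10.5% of exon bases lie opposite an antisense gene.

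Efna5 was the ephrin-A gene whose mean was highest in HC11, though its difference from BC44 (-0.20) did not pass (adjusted p = 0.21). HC11 averaged 15.7 ± 1.67 RPKM, BC44 13.5 ± 1.22 and C57MG 4.93 ± 0.558 (SD, n = 2 each). It made up 43.4% of the summed ephrin-A level in HC11 and 21.6% and 19.1% in BC44 and C57MG. Both BC44 (1.29, adjusted p = 4.61e-05) and HC11 (adjusted p = 2.42e-05) were above C57MG. Efna2 was at 2.31 and 1.67 RPKM for BC44, 1.24 and 0.819 for HC11, and 0.026 and 0 for C57MG, an estimated 1 read and none.

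The ephrin-B ligands span the membrane and were mostly Efnb1, at 77.5% to 97.1% of their sum in every library. Efnb1 was at 32.0 and 28.4 RPKM for BC44, 18.9 and 14.9 for HC11, and 16.8 and 17.1 for C57MG. BC44 was above HC11 by 0.81 (SE 0.12, adjusted p = 0.00142) and above C57MG by 0.80 (SE 0.12, adjusted p = 0.000689). HC11 and C57MG overlapped (-0.01, 95% confidence interval -0.30 to 0.27). Efnb2 was lowest in BC44, with 0.443 and 0.437 RPKM there, 1.32 and 3.75 in HC11, and 3.85 and 3.51 in C57MG. BC44 was below C57MG by 1.70 (SE 0.29, adjusted p = 0.00114). It was below HC11 by 1.20 (SE 0.29, adjusted p = 0.0114), which did not pass without either BC44 library. Efnb3 was at 0.902 RPKM or less in all libraries.

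Slit2, a secreted repellent, was highest in HC11. It was at 0.032 and 0.042 RPKM for BC44, 7.13 and 10.4 for HC11, and 2.09 and 2.34 for C57MG. No lines overlapped. HC11 exceeded BC44 by 3.21 (SE 0.16, adjusted p = 6.92e-06) and C57MG by 1.58 (SE 0.16, adjusted p = 7.95e-05), and C57MG exceeded BC44 by 1.63 (SE 0.16, adjusted p = 5.92e-05). The BC44 values were 1.44% and 1.90% of the C57MG mean, an estimated 12 and 18 reads.

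Robo1, the Slit receptor in the table, was at 0.732 and 0.781 RPKM for BC44, 2.05 and 1.68 for HC11, and 0.022 and 0 for C57MG. HC11 was therefore highest for both the ligand and its receptor. Robo1 passed the filter on low values through its HC11 libraries alone. Robo1 in HC11 was above BC44 by 0.70 (SE 0.10, adjusted p = 0.0011) and above C57MG by 1.5 (SE 0.10, adjusted p = 8.57e-06), and BC44 was above C57MG by 0.80 (SE 0.10, adjusted p = 0.000234).

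Ntn1, the best studied netrin, was a C57MG gene. It was at 0.163 and 0.612 RPKM for BC44, 1.14 and 1.65 for HC11, and 27.3 and 36.0 for C57MG. C57MG exceeded BC44 by 4.56 (SE 0.20, adjusted p = 8.89e-07) and HC11 by 3.77 (SE 0.20, adjusted p = 2.75e-06). The BC44 values were 0.515% and 1.93% of the C57MG mean, close to the 0.666% and 2.017% of genes private to C57MG. BC44 was below HC11 by 0.80 (SE 0.20, adjusted p = 0.0146), which did not pass without BC44 replicate 1 (adjusted p = 0.101) or HC11 replicate 2 (0.0955).

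Ntn4, a netrin of basement membranes, was at 1.72 and 1.49 RPKM in BC44 and at 0.115 or less elsewhere. Of the summed level of these netrins, Ntn4 made up 91.3% and 70.8% in the BC44 libraries, and Ntn1 made up 90.8% and 96.7% in HC11 and 99.95% in both C57MG libraries. The Unc5 receptor in the table, Unc5b, was at 17.1 and 16.5 RPKM for BC44, 25.9 and 23.2 for HC11, and 43.7 and 36.4 for C57MG. The lines did not overlap and followed the order of Ntn1. HC11 exceeded BC44 by 0.52 (SE 0.11, adjusted p = 0.00649), C57MG exceeded BC44 by 1.20 (SE 0.11, adjusted p = 3.71e-05) and C57MG exceeded HC11 by 0.68 (SE 0.11, adjusted p = 0.000885).

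**Figure D3:**
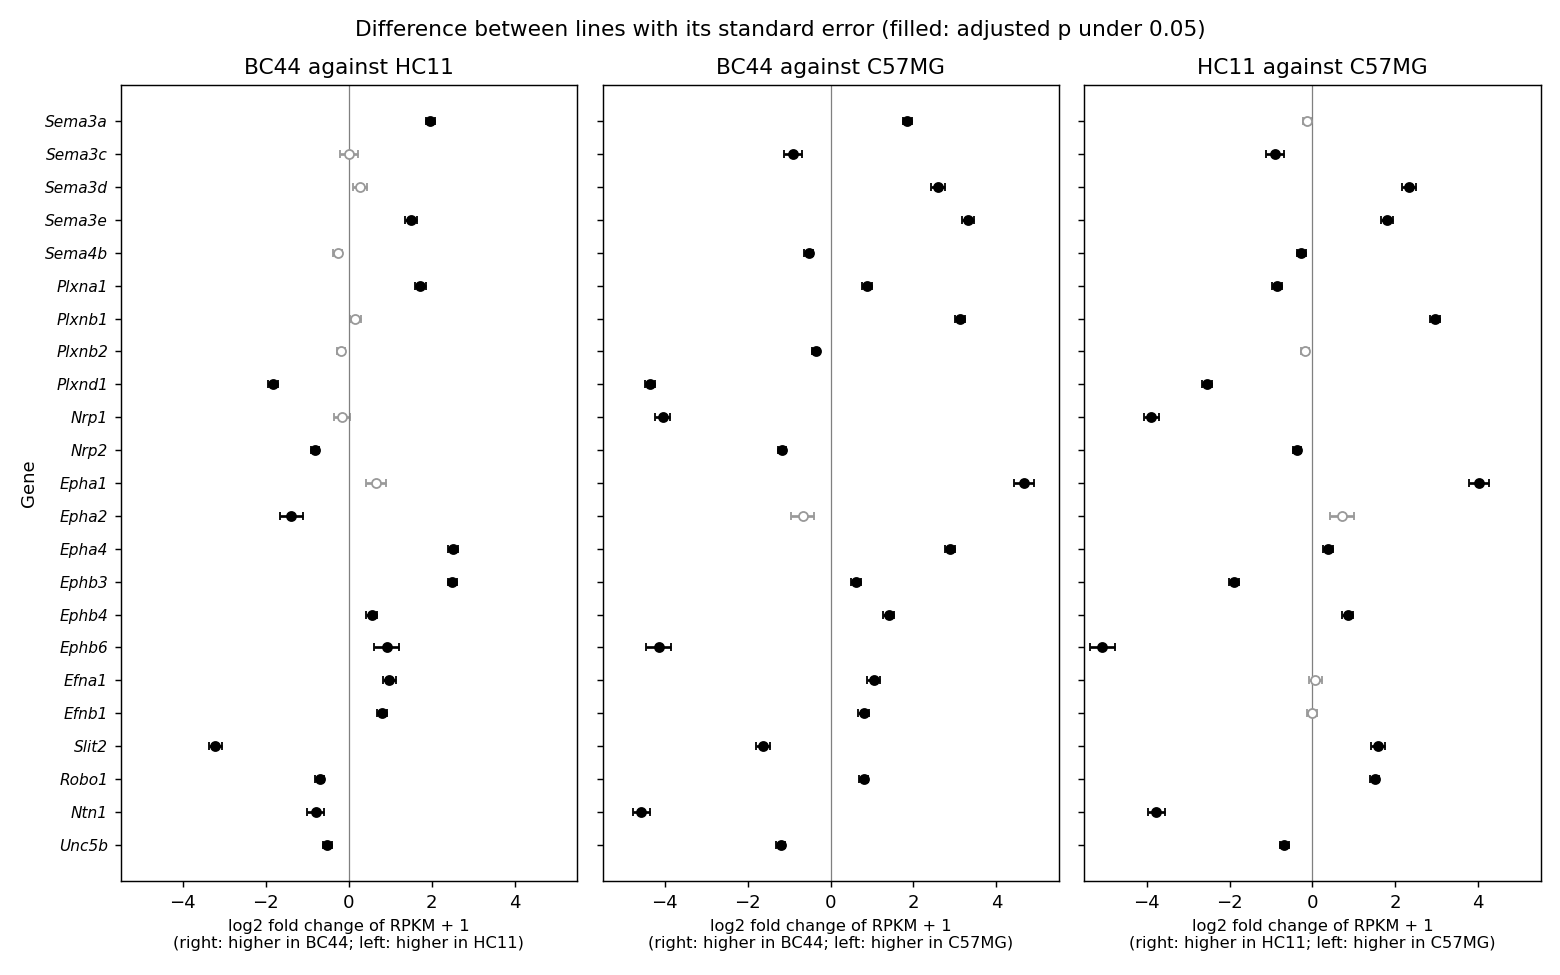
Log2 fold change of RPKM + 1 for the 23 genes given with full statistics, in 1 panel per contrast, with bars of 1 standard error. Filled points have a limma adjusted p under 0.05. Ephb6, Ntn1, Nrp1 and Plxnd1 lie furthest toward C57MG and Epha1 furthest toward BC44 and HC11.

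Ligands and their known receptors were set side by side for 6 pairs, chosen after their values were seen. For Sema3e and Plxnd1 the line order was reversed, since BC44 had most ligand (mean 9.28 RPKM) and least receptor (1.58), and C57MG the least ligand (0.033) and most receptor (51.9). For Sema4d and Plxnb1 both were high in BC44 and HC11 and low in C57MG. For Sema3a and Nrp1 the ligand was highest in BC44 and the receptor in C57MG. For Efnb2 and Ephb4 the line with most receptor, BC44, had the least ligand (0.440 RPKM). Slit2 and Robo1 were both highest in HC11, and Ntn1 and Unc5b in C57MG. Neo1 (neogenin), a netrin receptor outside these pairs, did not follow Ntn1. Its means were 34.0 RPKM for BC44, 21.2 for HC11 and 18.4 for C57MG. With 3 lines, these orders are a description and were not tested.

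**Figure D4:**
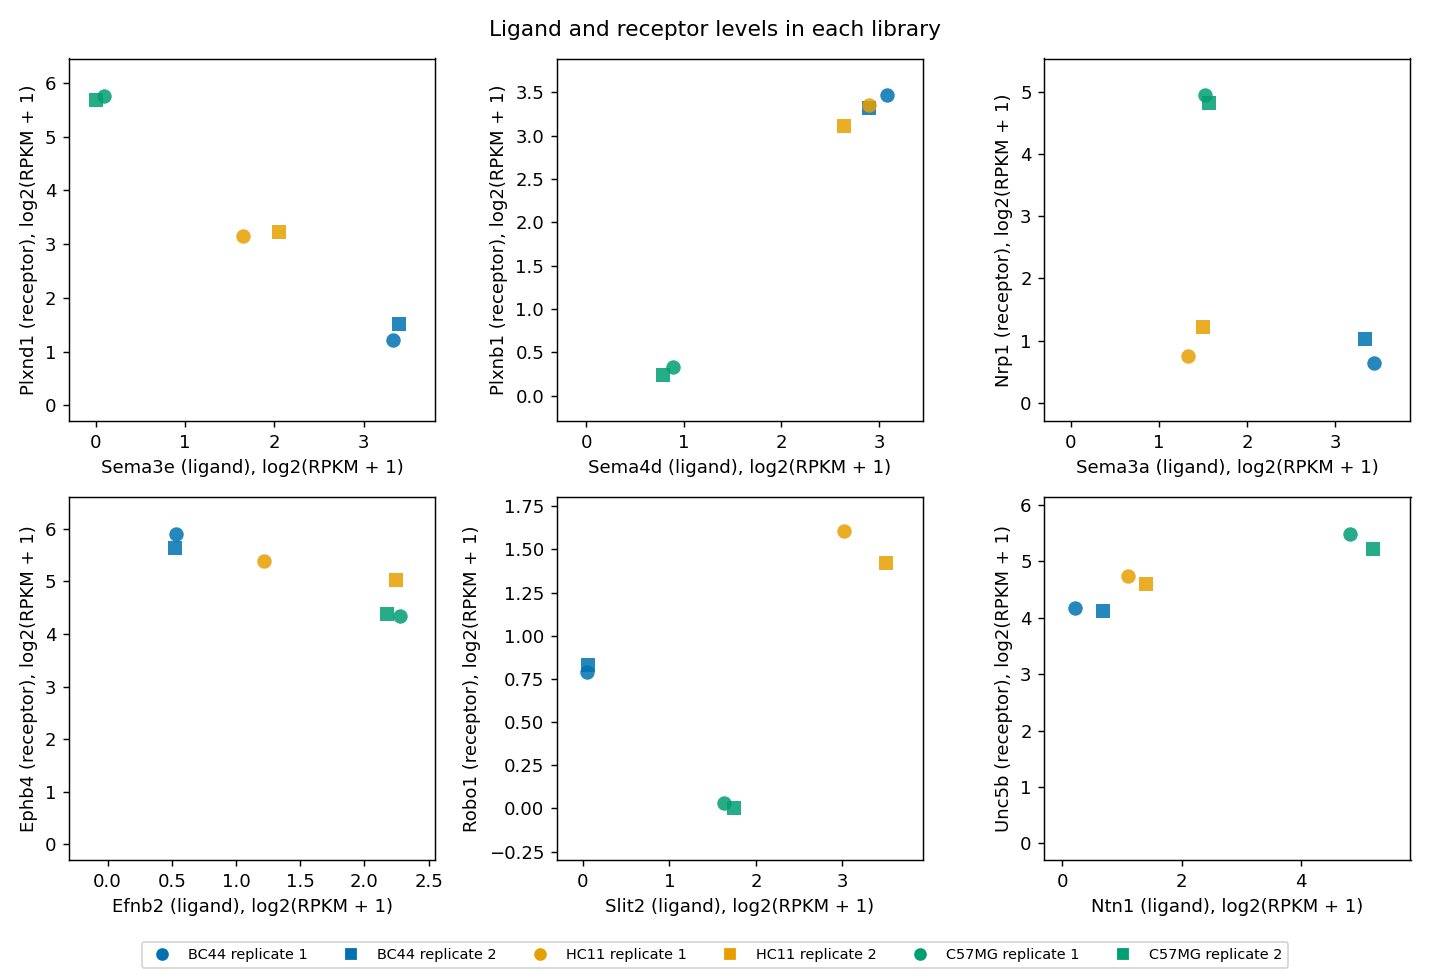
Level of a ligand (x axis) against that of a known receptor (y axis), both as log2(RPKM + 1), for 6 pairs, with 1 point per library coloured by line. Sema3e with Plxnd1 places BC44 and C57MG at opposite corners, and Sema4d with Plxnb1 places C57MG lowest on both axes.

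Partners of these receptors were read from a list of 60 co-receptors, adaptors and GTPase regulators, of which 50 were in the table and 47 were tested. For BC44 and HC11, equal numbers (13 each, 27.7%) were higher in either line, where 24.7% of all genes were higher in BC44 and 23.0% in HC11. When BC44 was set against C57MG, 15 (31.9%) were higher in BC44 and 25 (53.2%) in C57MG, where 37.5% and 34.1% of all genes were. Between HC11 and C57MG, 13 (27.7%) were higher in HC11 and 21 (44.7%) in C57MG, where 37.4% and 33.2% of all genes were. The total called was 26, 40 and 34 of 47 in these contrasts, or 55.3%, 85.1% and 72.3%, where the background was 47.7%, 71.7% and 70.5%.

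Several partners with large differences bind or relay these receptors. Grb7, an adaptor that binds Eph receptors, was at 13.9 and 11.1 RPKM for BC44, 11.8 and 9.001 for HC11, and 0.033 and 0 for C57MG. Ngef, an exchange factor that acts downstream of EphA receptors, was at 10.3 and 11.2 RPKM for BC44, 5.97 and 6.45 for HC11, and 0.184 and 0.183 for C57MG. Both followed Epha1 in being low in C57MG, by 3.72 and 3.31 against BC44 (adjusted p = 6.78e-07 and 2.86e-07). Against HC11, Grb7 was lower in C57MG by 3.48 (adjusted p = 1.11e-06).

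Srgap1, a GTPase-activating protein that binds Robo1, was at 5.01 and 4.81 RPKM in BC44 and at 0.038 or less in the other libraries, above HC11 by 2.51 (adjusted p = 1.83e-06). Flrt2, which binds Unc5 receptors, was at 8.40 and 11.97 RPKM in BC44 and at 0.687 or less elsewhere, above HC11 by 2.82 (adjusted p = 1.56e-05). Its relative Flrt3 was at 8.56 and 21.0 RPKM in HC11, above BC44 by 3.11 (adjusted p = 0.000287) and above C57MG by 3.71 (adjusted p = 4.47e-05). The highest line thus differed between these Flrt genes.

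Adam10, a protease that cuts ephrins, was at 30.6 and 33.2 RPKM in BC44 and 78.5 and 91.1 in HC11 (-1.38, adjusted p = 2.82e-05). Dpysl3, a relay of semaphorin signals, was at 5.78 and 5.94 RPKM in C57MG and at 0.758 or less elsewhere. Rnd1, a GTPase that binds plexins, was at 15.6 and 15.1 RPKM in C57MG and 2.56 and 3.21 in BC44 (-2.08, adjusted p = 2.48e-05). Gpc1, a heparan sulfate carrier that binds Slit proteins, was at 235 and 187 RPKM in C57MG and 51.9 and 58.1 in HC11 (-1.91, adjusted p = 6.25e-06). Dpysl3 was above BC44 by 2.71 (adjusted p = 8.99e-07) and above HC11 by 2.10 (adjusted p = 3.79e-06) in C57MG.

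The promoters of the genes with the largest differences between BC44 and C57MG show the sequence at which they start. Of the 6 such genes, 5 have a RefSeq promoter (GRCm38.p6) in the table used, and the 250 bases before the start are printed 5′ to 3′ on the gene's strand. Capitals mark the motif CAGGTG, the E-box read by Zeb and Snail factors, searched on both strands. Epha1, Sema3e and Plxnb1 were higher in BC44, and Plxnd1 and Ephb6 in C57MG.
Epha1 (chr6:42373269-42373518, minus strand): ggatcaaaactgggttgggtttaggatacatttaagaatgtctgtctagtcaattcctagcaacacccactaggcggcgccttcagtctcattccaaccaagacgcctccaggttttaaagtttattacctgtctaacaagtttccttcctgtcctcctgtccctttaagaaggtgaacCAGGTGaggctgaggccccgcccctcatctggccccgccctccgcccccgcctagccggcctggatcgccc
Sema3e (chr5:14025026-14025275, plus strand): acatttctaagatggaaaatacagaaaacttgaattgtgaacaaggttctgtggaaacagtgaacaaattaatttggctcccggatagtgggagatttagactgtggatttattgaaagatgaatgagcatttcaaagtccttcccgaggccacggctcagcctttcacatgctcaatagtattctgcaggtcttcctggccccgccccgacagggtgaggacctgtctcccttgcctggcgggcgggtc
Plxnb1 (chr9:109095186-109095435, plus strand): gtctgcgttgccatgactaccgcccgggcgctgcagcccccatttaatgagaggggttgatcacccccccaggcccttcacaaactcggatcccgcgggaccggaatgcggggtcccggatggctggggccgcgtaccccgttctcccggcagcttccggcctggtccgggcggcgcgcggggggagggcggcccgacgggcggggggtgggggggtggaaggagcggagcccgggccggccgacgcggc
Plxnd1 (chr6:115995006-115995255, minus strand): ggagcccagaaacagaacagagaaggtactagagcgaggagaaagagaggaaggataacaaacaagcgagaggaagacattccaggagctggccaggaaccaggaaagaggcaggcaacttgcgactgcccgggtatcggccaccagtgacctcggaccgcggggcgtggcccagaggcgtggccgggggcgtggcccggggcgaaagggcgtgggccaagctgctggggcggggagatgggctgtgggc
Ephb6 (chr6:41605261-41605510, plus strand): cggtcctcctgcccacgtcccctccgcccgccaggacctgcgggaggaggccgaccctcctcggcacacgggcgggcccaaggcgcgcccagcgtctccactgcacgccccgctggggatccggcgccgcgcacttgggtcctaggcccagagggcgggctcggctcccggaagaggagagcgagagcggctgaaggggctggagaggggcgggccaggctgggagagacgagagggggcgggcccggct
Of these 5 sequences only that of Epha1 holds CAGGTG. Over the guidance genes, 43 matched by symbol with 56 promoters, of which 9 (16.07%) hold CAGGTG, against 17.22% of all 32851 promoters of the same length. The motif AACNGGTT, bound by Grhl factors and read as AACCNGTT on the other strand, is on either strand in 1 of the 56 (1.79%), that of Sema6d, and in 1.79% of all promoters. A match is a description of these letters only.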

How the data were processed

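Poly(A) RNA of 3 cell lines was sequenced as strand-directional libraries, per the labels' protocols. The deposited values are RPKM, computed by the authors, 1 per gene and library and rounded to 3 decimals. STAR and mm9 are named in the submitters' processing notes. The counter, gene lengths and strand setting are not given in the sources used here. As mm9 differs from the GRCm38 annotation used (GENCODE M21, all 11417 identifiers matched), no gene coordinates are given except those of the RefSeq promoters.

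The test was run on log2(RPKM + 1) in R 4.3.3 by limma 3.58.1 (eBayes with trend, all 6 libraries, 10759 genes with at least 1 RPKM in at least 2 libraries), two-sided, with Benjamini-Hochberg adjustment within each contrast over all genes tested and a threshold of 0.05. The fit was also run on simulated data with independent noise. Those data held no shift shared between libraries and no signal from other lines, so the run does not cover either. Depth was estimated from the steps of low values times exon length, where 76.5% to 82.4% of 230 to 371 low values per library lay within 0.15 of a whole read, against 30.0% by chance. Read numbers and floors (3 reads) cover counting error only. Genes private to a line had a mean of at least 20 RPKM there, at most 2% of it in the third line and at most 5% in the other replicate of the line examined. The remaining steps ran in Python 3.11.15 (numpy 2.4.6, pandas 2.3.3, matplotlib 3.10.9).

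The genes and lists were chosen with earlier results of these data known. Any guidance gene could be named. Full statistics went to the 3 passing genes with the largest change per contrast and direction whose libraries did not overlap. They also went to the highest gene of each role class. Of the partners, the 2 largest per contrast and direction were named, and Neo1 as a netrin receptor. Alternatives were a pseudocount of 0.1, no filter, quantile and median-ratio scaling, only the 4 libraries compared, the replicate number as a block, subtraction of the other line's signal in BC44 and C57MG, and leaving out each library.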

Additional observations from a re-analysis of the deposited data

How the results depend on the processing

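The counts of guidance genes (with and without the 2-fold limit), partners and all genes called stayed within 1.5 times their values under the 13 alternatives, while the EphB and ephrin-A counts between BC44 and HC11 fell from 5 to 3 and from 4 to 2 without BC44 replicate 1. Counts by direction and line pattern were not rerun. Leaving out 1 library at a time, where the remaining library of a line is assumed to vary like the others, gave 20 to 31 guidance genes between BC44 and HC11, 38 to 41 between BC44 and C57MG, and 27 to 33 between HC11 and C57MG, while 35.0% to 44.4%, 60.9% to 73.8% and 58.3% to 68.8% of all genes passed. The lowest of these, 20, was without BC44 replicate 1. A replicate block built from the library numbers passed 28, 41 and 32 guidance genes against 27, 40 and 32 (49.7%, 73.2% and 71.8% of all genes against 47.7%, 71.7% and 70.5%), and 16, 30 and 21 at 2-fold in both fits. Same-numbered libraries' deviations correlated at 0.354, -0.039 and 0.038 across genes in these contrasts. The main fit did not take the numbers as pairs. Whether same-numbered BC44 and HC11 libraries share a shift, given their 0.354, was not tested. With this block Epha1 also passed in BC44 against HC11 (adjusted p = 0.00445), and Epha2 passed both between C57MG and BC44 (0.0163) and between C57MG and HC11 (0.0133).

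No called guidance gene changed direction under any alternative. Of 897 comparisons of a single gene's change with its value under an alternative, 843 kept direction and side of the threshold, 31 lost the call, 15 gained it and 8 changed direction, all without a call. Sema3c in BC44 against HC11 (0.0026) turned to -0.0059 with median-ratio scaling and -0.0312 with subtraction, and ranged from -0.30 to 0.30 when single libraries were left out. With single libraries left out, Nrp1 in BC44 against HC11 ranged from -0.387 to 0.0694, Efna1 in HC11 against C57MG from -0.14 to 0.27 and Efnb1 in HC11 against C57MG from -0.18 to 0.15. The cause was not tested.

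Levels under about 0.1 RPKM rest on few reads (3 reads are 0.081 to 0.107 RPKM for a gene of 2 kb). Low values in BC44, C57MG and HC11 are also bounded by the share of other lines' private genes. That share varied widely between genes in HC11, where it was not subtracted.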
